A study of Homo sapiens with 12 samples.

Results

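Replication-independent histone variants are histones whose genes can be transcribed outside S phase and whose mRNAs as a rule end in a poly(A) tail. Their 10 genes were chosen by name, whatever their values, from 38716 gene symbols in the deposited tables: H2AFZ and H2AFV (H2A.Z), H2AFX (H2A.X), H2AFY and H2AFY2 (macroH2A), H2AFJ (H2A.J), H3F3A and H3F3B (H3.3), and H1F0 and H1FX (linker histones H1.0 and H1.10). All 10 had coding reads and passed the filter on low values in every layer tested. They were measured in IMR90 cells, a fibroblast line from normal human lung, by Ribo-seq (sequencing of mRNA fragments that ribosomes protect from nuclease) and by RNA-seq of the poly(A) fraction. Cultures were proliferating (Pro) or had reached replicative exhaustion by continued passaging (senescent, Sen). There were 3 independently grown lysates per state, each with 1 Ribo-seq and 1 RNA-seq library, and no group carried an introduced allele or a labelled drug treatment. The protocol names isolates I90-10 and I90-79 without assigning them to samples, and the RNA-seq files of Pro cells carry a tag that resembles DMSO, which the labels do not mention, so the part of either in the differences was not tested.

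Most histone protein is made in S phase from clustered, replication-dependent genes whose mRNAs end in a conserved stem-loop rather than a poly(A) tail. The variants are made throughout the cell cycle and replace those histones without DNA synthesis. H2A.Z is placed at promoters by ATP-dependent remodelers, H3.3 is placed in active genes and at repeats by dedicated chaperones, H2A.X is phosphorylated around DNA breaks, macroH2A is found in repressed chromatin, and H1.0 is a linker histone of resting cells. A dividing cell must supply histones to newly copied DNA. The comparison between states asks how much of the change in each gene was at the level of mRNA and how much at the level of translation.

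On GRCh37, H2AFZ lies at chr4:100869243-100871512 and H2AFV at chr7:44866390-44887686, both on the minus strand with 5 exons. H2AFX (chr11:118964584-118966175, minus strand), H2AFJ (chr12:14927339-14930936, plus strand), H1F0 (chr22:38201236-38203439, plus strand) and H1FX (chr3:129033614-129035129, minus strand) each have 1 exon in the transcript used here. The macroH2A genes H2AFY (chr5:134670071-134735604, minus strand) and H2AFY2 (chr10:71812300-71872038, plus strand) have 9 exons. The H3.3 genes H3F3A (chr1:226249552-226259720, plus strand) and H3F3B (chr17:73772515-73781974, minus strand) have 4. The deposited tables give symbols without positions, so splice forms of a gene, such as those of macroH2A1, are summed.

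H2AFX encodes a variant but keeps the stem-loop of the replication-dependent class, and its sequence is shown because it sets this gene apart among the 10. It lies on the minus strand at chr11:118965603-118965628 (GRCh37), starting 50 bases after the stop codon in a 3′ UTR of 1089 nt, and the capitals mark the stem-loop.
H2AFX: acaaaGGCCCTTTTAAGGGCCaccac
No other member had a match to this stem-loop pattern in its 3′ UTR. Of the replication-dependent transcripts matched by current symbol, 63 of 63 had one, as did 10 of 18849 transcripts of remaining genes (0.0531%). HIST1H2BE, HIST1H2BF, HIST1H2BG and HIST1H2BI were given the current symbol of HIST1H2BD (H2BC5). The remaining genes can therefore include replication-dependent ones. The H3.3 genes encode the same protein from different bases. The first 30 coding bases are shown because the paired results below rest on telling these genes apart, at chr1:226252053-226252082 (plus strand) and chr17:73775226-73775255 (minus strand), with the 6 differing bases in capitals.
H3F3A: atggcTcgTacAaagcagactgcCcgCaaA
H3F3B: atggcCcgAacCaagcagactgcTcgTaaG
The coding sequences of H3F3A and H3F3B were identical at 78.59% of 411 positions, and 77 of their 88 differences fell at the third codon position. Those of H2AFZ and H2AFV were identical at 80.36% of 387 positions, with 65 of 76 differences at the third codon position.

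These differences separate the paralogs from each other but not from copies elsewhere. Of all 30-nt windows in the coding sequence, the length of a footprint, 100% (382 of 382) of those in H3F3A occurred at least once more in the GRCh37 genome, many of them in annotated pseudogenes. The share was 55% in H2AFZ, 44% in H3F3B and 43.3% in H2AFV, and 0% in the other 6 genes. For 47-nt windows over the whole mRNA, the length of the shortest RNA-seq reads, it was 94.3% in H3F3A and from 0% to 16.2% in the other members. How reads with several placements were counted is not given in the sources used here, so the levels of H3F3A in particular are uncertain. Antisense genes overlap H1FX (H1-10-AS1) and H2AFY (PITX1-AS1), and without a stated strand rule reads from such partners cannot be told apart.

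RNA-seq libraries held 7895293 to 14133378 reads in mRNA regions. Coding (CDS) reads of the Ribo-seq libraries numbered 54421, 685061 and 1718521 in Pro 1 to 3 and 1672807, 54708 and 583798 in Sen 1 to 3. Pro 1 and Sen 2, called shallow here, resolve little for single genes. A floor of 3 counts corresponded to 55.2 and 55.0 CPM, the reads scaled to library size without TMM factors, against at most 5.14 CPM in the other 4. The proliferation marker MKI67 averaged 149 CPM in Pro and 30.5 CPM in Sen, and the cell-cycle inhibitor CDKN1A 504 and 1532 CPM. Fibroblast marker genes summed to 29651 to 35255 CPM in every RNA-seq library. COL1A1 held the largest part (14209 CPM in Pro, 13269 in Sen). Single markers moved both ways, such as COL3A1 from 2038 to 1068 CPM and THY1 from 919 to 1263 CPM. The 4 epithelial markers found in the files summed to 31.9 to 32.3 CPM in Pro and 19.3 to 23.7 in Sen (mostly KRT8), the 4 endothelial markers to 0.610 to 0.683 and 0.822 to 1.03 (CDH5 at 0), and the 3 blood markers to 21.4 to 23.4 and 35.4 to 41.2 (mostly CD68, with PTPRC at most 0.171). The part of other cell types in the differences was not tested.

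**Figure D1:**
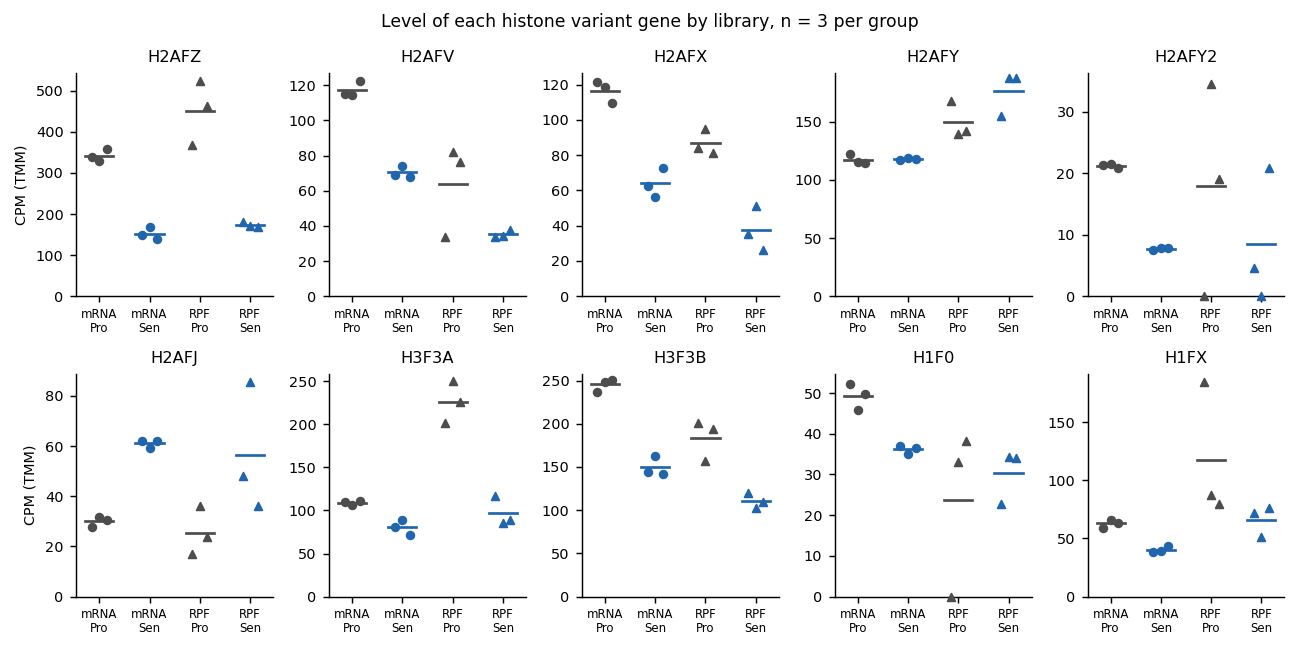
Level in CPM (vertical axes from 0, one scale per gene) of the 10 histone variant genes in each library, with mRNA as circles, ribosome-protected fragments (RPF) as triangles and group means as lines, n = 3 per group. The mRNA points of Pro and Sen separate for every gene but H2AFY, while the RPF points scatter more, with H2AFY2 at 0 CPM in Pro 1 and Sen 2.

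mRNA of the variants was mostly lower in senescent cells. Of the 10 genes, 8 fell, 1 rose and 1 did not pass the test, with a median log2 fold change (Sen over Pro) of -0.68 against -0.01 over all genes tested. The background was high: 73.6% of 12787 genes passed, 36.6% upwards and 37% downwards. Groups of 3 libraries did not overlap for 9 of the 10 genes, and for 67.8% of all genes. DESeq2 also called 9 of the 10, and 68.2% of all genes. A gene was called at an edgeR quasi-likelihood adjusted p under 0.15, the false discovery rate of the published methods. In bulk RNA, fewer cells with a transcript and less transcript per cell cannot be told apart.

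The H2A.Z genes were both lower. mRNA of H2AFZ, the main source of H2A.Z, measured 338, 330 and 358 CPM in Pro 1 to 3 and 149, 168 and 140 CPM in Sen 1 to 3. All Pro libraries lay above all Sen libraries, and the fitted level was 2.24-fold lower (log2 fold change -1.16 ± 0.08 SE, edgeR adjusted p = 1.58e-11). H2AFV mRNA measured 115, 114 and 122 CPM in Pro and 69.1, 74.2 and 67.9 CPM in Sen, again without overlap, and fell by 0.73 ± 0.07 on the log2 scale (edgeR adjusted p = 1.08e-08). Ribosome-protected fragments, the CDS reads of Ribo-seq, also fell. H2AFZ had 369, 523 and 463 CPM in Pro (22, 364 and 802 reads) and 180, 171 and 168 CPM in Sen (276, 10 and 89 reads). The groups were apart by a wide margin, with a log2 fold change of -1.45 ± 0.17 (edgeR adjusted p = 2.11e-11). H2AFV had 33.5, 82.0 and 76.3 RPF CPM in Pro and 33.8, 34.2 and 37.9 in Sen. Its groups overlapped through the shallow library Pro 1, which held 2 reads of the gene, and the fold change was -1.12 ± 0.24 (edgeR adjusted p = 8.88e-05). This call was lost with DESeq2 (adjusted p = 0.205).

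H2AFX, the stem-loop gene, fell in both layers. Its mRNA was 122, 118 and 109 CPM in Pro and 62.7, 56.2 and 73.0 CPM in Sen, a log2 fold change of -0.87 ± 0.09 (edgeR adjusted p = 1.20e-08). Its RPF measured 83.8, 94.9 and 81.5 CPM in Pro and 35.1, 51.3 and 26.5 CPM in Sen, the value of Sen 2 resting on 3 reads. Neither layer showed overlap, and RPF fell by 1.37 ± 0.24 on the log2 scale (edgeR adjusted p = 1.81e-06). H2AFJ, which encodes H2A.J, was the member that rose. Its mRNA was 27.6, 31.7 and 30.5 CPM in Pro and 62.0, 59.4 and 62.1 CPM in Sen, 2.03-fold higher (log2 fold change 1.02 ± 0.08, edgeR adjusted p = 3.72e-10). H2AFJ RPF measured 16.8, 36.0 and 23.7 CPM in Pro and 48.2, 85.5 and 36.0 CPM in Sen, on 1 read in Pro 1 and 5 in Sen 2. The highest Pro and the lowest Sen library nearly touched, and the rise of 0.74 ± 0.29 (edgeR adjusted p = 0.0322) lost its call without Pro 3 (0.43, adjusted p = 0.449) or without Sen 1 (0.62, adjusted p = 0.331), and with DESeq2 (0.79, adjusted p = 0.489).

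The macroH2A genes took different courses. H2AFY mRNA was 122, 116 and 114 CPM in Pro and 117, 119 and 118 CPM in Sen, with overlapping groups. Its fold change of 0.01 ± 0.07 (edgeR adjusted p = 0.921) had a 95% interval of -0.13 to 0.14, and the sign turned under library totals (-0.10), with at least 1 read (-6e-04), and without Pro 2, Pro 3 or Sen 2. H2AFY2 mRNA was 21.3, 21.4 and 20.8 CPM in Pro and 7.44, 7.76 and 7.76 CPM in Sen. The libraries within each state lay close together and the states far apart, with a 2.76-fold lower level in Sen (log2 fold change -1.47 ± 0.11, edgeR adjusted p = 1.57e-10). RPF of H2AFY ranged from 140 to 168 CPM in Pro and from 155 to 188 CPM in Sen, overlapping, with a fold change of 0.24 ± 0.17 (edgeR adjusted p = 0.260). RPF of H2AFY2 rested on few reads: 0, 24 and 33 in Pro and 7, 0 and 11 in Sen. With overlapping groups of 0, 34.5 and 19.1 against 4.56, 0 and 20.8 CPM, the fold change was -1.41 ± 0.44 (edgeR adjusted p = 0.00747), which did not pass with DESeq2 (-1.09, adjusted p = 0.632) or without Sen 1 (-0.32, adjusted p = 0.735). Without Sen 3 it was -2.38 (adjusted p = 9.47e-04).

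Both H3.3 genes fell in both layers. H3F3A mRNA was 110, 106 and 111 CPM in Pro and 81.0, 88.5 and 72.0 CPM in Sen (log2 fold change -0.44 ± 0.08, edgeR adjusted p = 4.79e-05). H3F3B mRNA was 237, 249 and 251 CPM in Pro and 144, 162 and 142 CPM in Sen (-0.71 ± 0.07, edgeR adjusted p = 1.63e-08). Neither gene's states overlapped. H3F3A RPF measured 201, 250 and 226 CPM in Pro (12, 174 and 391 reads) and 117, 85.5 and 89.0 CPM in Sen (180, 5 and 47 reads), a fold change of -1.14 ± 0.17 (edgeR adjusted p = 1.15e-07). H3F3B RPF measured 201, 157 and 194 CPM in Pro and 120, 103 and 110 CPM in Sen, a fold change of -0.64 ± 0.17 (edgeR adjusted p = 0.00190). Again no libraries overlapped between states. The H3F3B call was lost without Pro 3 (-0.50, adjusted p = 0.153) and with DESeq2 (adjusted p = 0.166).

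The linker histone variants fell as mRNA. H1F0 was 52.2, 45.9 and 49.7 CPM in Pro and 36.9, 35.1 and 36.6 CPM in Sen (log2 fold change -0.44 ± 0.08, edgeR adjusted p = 6.66e-05). H1FX was 59.3, 66.0 and 63.4 CPM in Pro and 38.2, 39.1 and 43.7 CPM in Sen (-0.64 ± 0.08, edgeR adjusted p = 4.53e-07). Their RPF did not pass the test. H1F0 had 0, 33.1 and 38.1 RPF CPM in Pro and 22.8, 34.2 and 34.1 in Sen. It had no read in Pro 1, where the floor of 3 counts stood at 55.2 CPM without TMM factors. Its fold change was -0.41 ± 0.31 (edgeR adjusted p = 0.297), while its group means ran the other way (23.7 CPM in Pro, 30.3 in Sen). Leaving out 1 library moved it between -0.57 (without Sen 3) and -0.02 (without Sen 1), and without Pro 1 it passed at -0.52 (adjusted p = 0.144), so its direction is not settled. H1FX had 184, 87.7 and 79.2 RPF CPM in Pro, the first from 11 reads, and 71.6, 51.3 and 75.7 in Sen. Every Pro library was higher than every Sen library, yet the fitted change was -0.26 ± 0.21 (edgeR adjusted p = 0.317, 95% interval -0.67 to 0.14). On library totals it passed at -0.40 (adjusted p = 0.109).

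Over the 10 genes, RPF fell for 6, rose for 1 and did not pass for 3, with a median log2 fold change of -0.88 against 0.0014 over all 7521 genes tested. In that layer 54.2% of genes passed, 27.6% upwards and 26.6% downwards. Groups did not overlap for 6 of the 10 members and for 32.6% of all genes. Library totals called 8 of the 10 members, and 55.9% of all genes. DESeq2 called 3, and 15.5% of all genes.

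**Figure D2:**
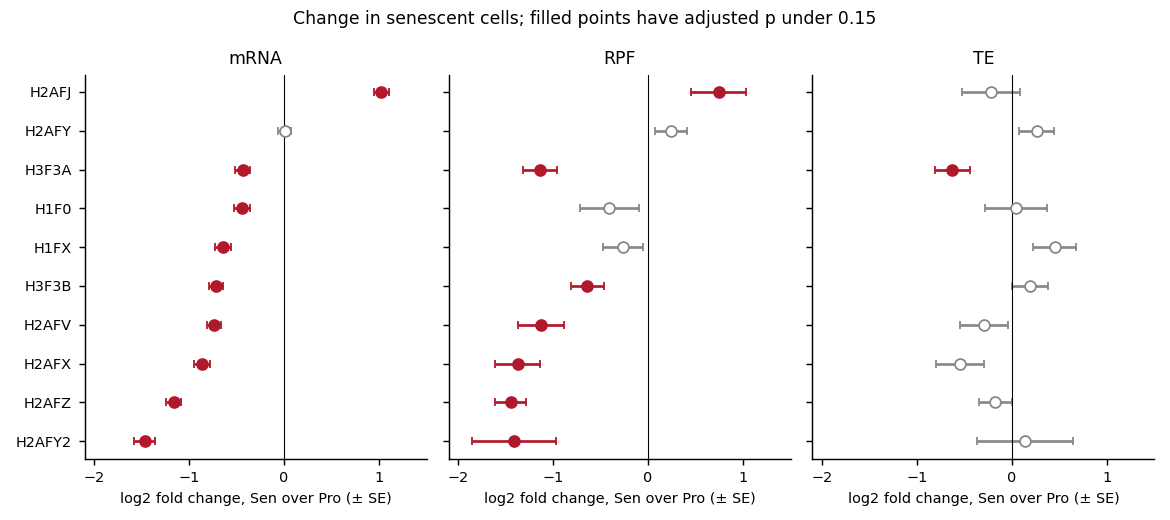
Log2 fold change of Sen over Pro with its standard error (horizontal axes) for the 10 genes, ordered by mRNA change, in mRNA, RPF and translational efficiency (TE); filled points have an adjusted p under 0.15. In mRNA and RPF most points lie left of 0 and H2AFJ lies right of it, while in TE the filled point is H3F3A at -0.63.

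Translational efficiency (TE), the RPF level relative to mRNA in the same lysate, differed for 1 member. H3F3A had log2 TE of 0.93, 1.24 and 1.03 in Pro and 0.54, 0.09 and 0.32 in Sen. All Pro lysates exceeded all Sen lysates, with a TE change of -0.63 ± 0.19 (edgeR interaction test, adjusted p = 0.0415). This gene is the one whose 30-nt coding windows all occur elsewhere in the genome, and its Pro 1 and Sen 2 values rest on 12 and 5 RPF reads; their part in the change was not tested. The call was lost without Pro 2 (adjusted p = 0.323), Pro 3 (0.193), Sen 1 (0.166) or Sen 3 (0.274), and the change stayed between -0.81 and -0.56. Across all genes 10.4% of 7473 passed, 6.8% upwards and 3.57% downwards, and 16.3% had groups that did not overlap, against 1 of the 10 members.

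The other 9 genes did not pass for TE, which leaves intervals and not equality. The 95% interval of the TE change was -0.52 to 0.16 for H2AFZ, -0.10 to 0.62 for H2AFY and -0.18 to 0.57 for H3F3B, the members with many reads. For the sparse H2AFY2 it was -0.84 to 1.12. H1FX had a fitted change of 0.45 ± 0.23 (edgeR adjusted p = 0.273), with an interval of 0.0052 to 0.898 that leaves out 0. Its groups overlapped, and its mean log2 TE was 0.82 in Pro and 0.78 in Sen. H2AFX had log2 TE of -0.40, -0.31 and -0.42 in Pro and -0.82, 0.09 and -1.41 in Sen. The shallow Sen 2 lay above every Pro lysate and the other Sen lysates below, giving -0.54 ± 0.25 (edgeR adjusted p = 0.221). The interval, -1.04 to -0.05, also left out 0. Without Pro 1, H2AFX passed at -0.62 (adjusted p = 0.118). Leaving out both shallow lysates gave 3 calls among the members, H2AFX lower (-0.60, adjusted p = 0.134), H1FX higher (0.54, adjusted p = 0.120) and H3F3A lower. In that setting 13.2% of all genes passed. DESeq2 called none of the members for TE, and 0.375% of all genes.

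The related genes were next compared within each library, which needs no scaling between libraries. The log2 ratio of H3F3B to H3F3A mRNA was 1.111, 1.223 and 1.178 in Pro and 0.83, 0.88 and 0.98 in Sen, so that H3F3B lost more mRNA than H3F3A. In RPF the ratio was 0, -0.67 and -0.22 in Pro and 0.03, 0.24 and 0.30 in Sen, a change the other way. The difference was -0.28 in mRNA and 0.49 in RPF, each without overlap (exact permutation test, two-sided p = 0.1, the smallest that 3 against 3 can give, and 0.16 adjusted over 8 ratios). In RPF the separation was narrow, between Pro 1 at 0 (12 reads of each gene) and Sen 1 at 0.03, and without Pro 2 the difference was 0.30 (exact permutation p = 0.2).

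**Figure D3:**
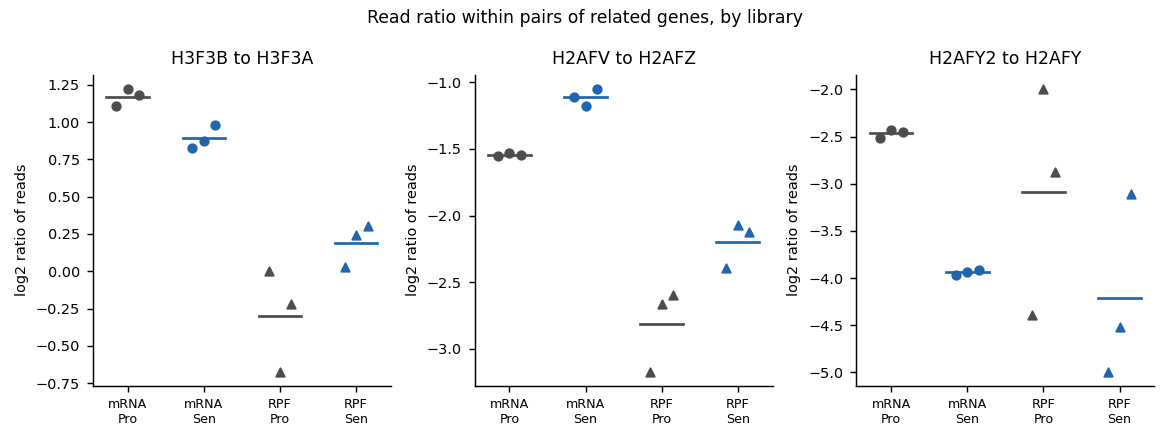
Log2 ratio of reads (vertical axis, one scale per pair) of H3F3B to H3F3A, H2AFV to H2AFZ and H2AFY2 to H2AFY in each library, with mRNA as circles, RPF as triangles and group means as lines. The H3F3B to H3F3A ratio is lower in Sen for mRNA (mean 0.90 against 1.17) and higher in Sen for RPF (0.19 against -0.30).

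For the H2A.Z pair, the log2 ratio of H2AFV to H2AFZ mRNA rose from -1.54 ± 0.01 in Pro to -1.11 ± 0.07 in Sen (SD, n = 3), and the RPF ratio from -2.81 ± 0.31 to -2.20 ± 0.17. Neither overlapped, both at the smallest exact permutation p of 0.1. On CDS reads alone the direction of the mRNA ratio turned (-0.21, exact permutation p = 0.2). The ratio of H2AFY2 to H2AFY mRNA went from -2.46 ± 0.04 to -3.94 ± 0.02, without overlap (exact permutation p = 0.1), and its RPF ratio overlapped (exact permutation p = 0.2). The H1FX to H1F0 ratio overlapped in mRNA (exact permutation p = 0.2) and in RPF (p = 0.5).

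The turn of the H2AFV ratio goes with where its reads lay. H2AFV has a 3′ UTR of 2523 nt, and the 3′ UTR held 52.3, 50.3 and 50.1% of its RNA-seq reads in Pro and 63.8, 68.9 and 68.4% in Sen. The groups were apart by 16.1 percentage points (exact permutation p = 0.1, the smallest possible, 0.4 adjusted over the 10 genes). On CDS reads alone H2AFV mRNA had a log2 fold change of -1.30 ± 0.10 (edgeR adjusted p = 2.50e-08), and its TE change turned from -0.29 to 0.17. Over all genes the 3′ UTR share was 24.6 to 25.1% in Pro libraries and 26.8 to 28.8% in Sen libraries, and 12.8% of 12725 genes had shares that did not overlap. Among the members, H1FX was the other gene without overlap, at 22.3 ± 0.72% in Pro and 25.6 ± 2.15% in Sen, a difference of 3.31 points that was 2.17 without Sen 2. In H2AFX the share, seen in the poly(A) fraction alone, was 65.8 ± 1.02% in Pro and 66.3 ± 2.48% in Sen (SD, n = 3), with overlap.

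**Figure D4:**
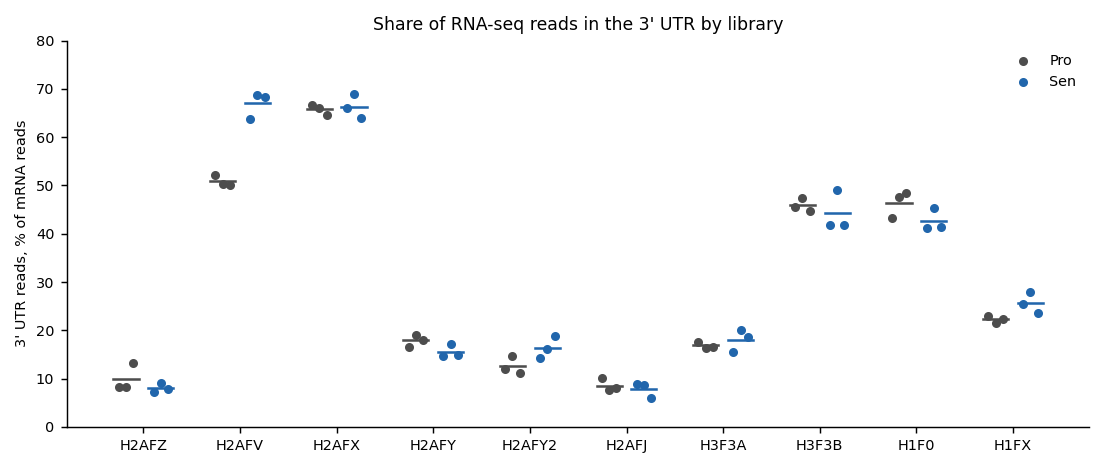
Share of each gene's RNA-seq reads in the 3′ UTR (percent of 5′ UTR, CDS and 3′ UTR reads, vertical axis from 0) in 3 Pro and 3 Sen libraries per gene, with group means as lines. H2AFV moves from 50.9% to 67.0% on average, while H2AFX stays at 65.8% and 66.3%.

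The genes were ordered by CDS reads per kilobase of coding sequence. In Pro mRNA, H2AFZ led with 782 ± 54.3 CPM per kb, followed by H3F3B (308 ± 3.16), H3F3A (226 ± 17.6) and H2AFV (169 ± 8.60), each without overlap with the next. H2AFY and H2AFX (114 and 110) overlapped, as did H1FX and H2AFJ (86.4 and 75.0), and H1F0 (49.7) and H2AFY2 (21.6) were lowest. In Sen mRNA, H2AFZ (367 ± 48.0) was again first, H3F3B, H3F3A and H2AFJ (196, 174 and 160) each overlapped with the next, H2AFY stood at 115, and H2AFV, H2AFX and H1FX (68.6, 60.3 and 55.0) overlapped. In RPF, H2AFZ led in both states with 1168 ± 201 and 447 ± 15.2 CPM per kb. H3F3A stood above H3F3B in Pro RPF (549 ± 59.7 and 448 ± 58.1) and below it in Sen (237 ± 42.3 and 269 ± 21.0), but at these spreads the neighbours overlapped or touched.

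The replication-dependent histones, 70 symbols of the clustered genes, gave the contrast. As RPF, 60 of 60 tested fell (median -2.40), and as poly(A) mRNA 22 of 22 tested rose (median 2.10), against 26.6% of all genes lower as RPF and 36.6% higher as mRNA. Some symbols carry the same counts in every library and may share reads, which leaves 56 distinct rows of 60 and 20 of 22. In the RNA-seq, poly(A) selection leaves out most stem-loop transcripts. Low genes pass the filter through the state in which they are high, so these counts do not speak for all 70. The ratio used as TE was lower for 22 of 22, against 3.57% of all genes. With RPF lower and poly(A) mRNA higher, that outcome was already fixed. As most of their mRNA goes uncaptured, the ratio does not measure their translation. HIST1H1C, a linker histone, averaged 13.6 CPM of mRNA in Pro and 63.2 in Sen, and 732 and 285 CPM of RPF (log2 fold changes 2.21 ± 0.09 and -1.41 ± 0.17, edgeR adjusted p = 9.20e-15 and 4.73e-11). HIST1H4H and HIST1H2AC moved alike, with mRNA changes of 2.57 and 1.90 and RPF changes of -1.49 and -1.18. H2AFX, which matches the stem-loop pattern, had lower mRNA in Sen. Its ratio of RPF to mRNA changed by -0.54, against -3.55 in HIST1H1C, and this difference between genes was not tested. RNA-seq of the poly(A) fraction would miss any H2AFX mRNA that ends at the stem-loop, while Ribo-seq would count its footprints.

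Within each histone class, the share of reads assigned to variant genes moved in opposite ways in RPF and mRNA (a summary chosen after its values were seen). Of RPF reads assigned to H2A genes, the 6 variants held 30.3, 36.2 and 35.2% in Pro and 53.6, 63.3 and 59.7% in Sen. For H3 the 2 variant genes held 18.3 ± 0.63% in Pro and 41.3 ± 5.12% in Sen, and for H1 the 2 genes held 5.79 ± 1.25% and 15.8 ± 2.82%. In poly(A) mRNA the variants' share went from 94.97 to 75.50% for H2A, 99.1 to 95.9% for H3 and 88.9 to 54.4% for H1. No libraries overlapped between states in any of these 6 comparisons. Because the summary was chosen from these same values, that separation is a description and not a test. The directions follow from the RPF falls and mRNA rises of the replication-dependent genes given above. Replication-dependent symbols that carry the same counts were each counted in the class totals. The 10 members together made up 0.135 to 0.146% of all RPF reads in Pro and 0.0711 to 0.0861% in Sen, and the replication-dependent genes 0.857 to 0.928% and 0.139 to 0.202%.

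**Figure D5:**
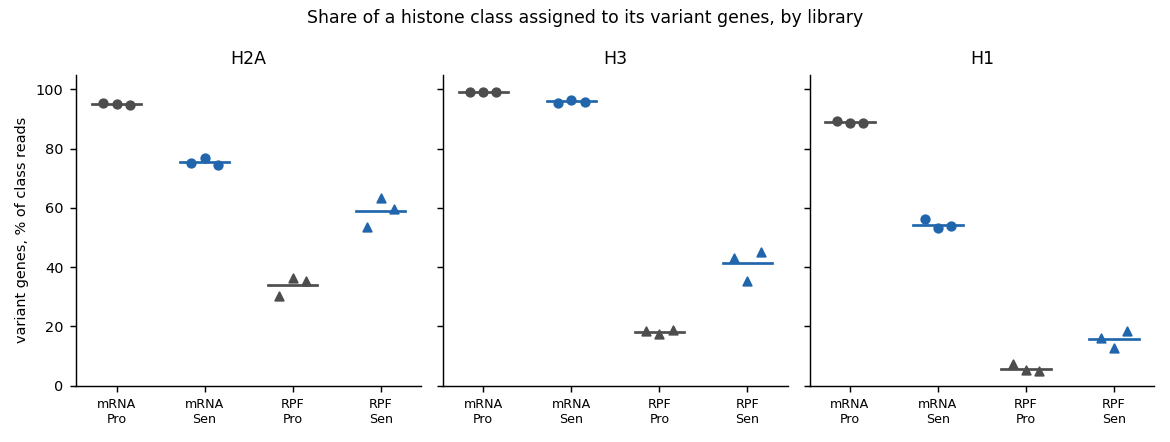
Percent of the reads of histone classes H2A, H3 and H1 that fell on variant genes rather than replication-dependent genes (vertical axis from 0), by library, with mRNA as circles, RPF as triangles and group means as lines. In RPF the H2A share rises from a mean of 33.9% to 58.8% and in poly(A) mRNA it falls from 94.97% to 75.50%.

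The proteins that place variants in chromatin were mostly lower as mRNA. Of the 7 H3.3 deposition genes, 6 fell and 1 rose. The lowest was HIRA, the H3.3 chaperone of genic chromatin (50.8 CPM in Pro, 33.4 in Sen, log2 fold change -0.61 ± 0.08, edgeR adjusted p = 6.76e-07), and the one that rose was its partner CABIN1 (0.26 ± 0.08, adjusted p = 0.00480). Of these, 5 could be tested as RPF, where 2 fell, and none passed for TE. Of the 12 H2A.Z exchange genes, 10 fell and 1 rose. ANP32E, which removes H2A.Z from chromatin, had 72.8 CPM in Pro and 38.8 in Sen (-0.91 ± 0.08, edgeR adjusted p = 3.23e-09), and ZNHIT1, a subunit of the SRCAP remodeler that deposits H2A.Z, 63.0 and 116 CPM (0.89 ± 0.08, adjusted p = 1.06e-09). In RPF, the fitted change passed downwards for 5 of 10 and upwards for 3. One of these 3 was ZNHIT1, whose fitted RPF change was 0.61 (edgeR adjusted p = 0.0215) while its group means ran the other way, 87.5 CPM in Pro and 61.1 in Sen, with 9 reads in the shallow Pro 1 and 0 in Sen 2. In TE 2 of 10 passed upwards, against 6.8% of all genes. The median mRNA change was -0.29 for the H3.3 deposition genes and -0.33 for the H2A.Z exchange genes. The all-gene shares given above, 73.6% in mRNA and 54.2% in RPF, stand as the background of these lists. Downwards these shares were 37% and 26.6%, and upwards 36.6% and 27.6%.

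Chaperones of newly made or replication-coupled histones showed the same direction. Of 12 such genes, 11 fell and 1 rose as mRNA (median -0.96), and 9 of 10 tested fell as RPF (median -1.15). MCM2, the replicative helicase subunit that also holds histones, went from 47.02 to 13.98 CPM (log2 fold change -1.76 ± 0.10, edgeR adjusted p = 1.05e-12), and NAP1L4, a histone chaperone, rose by 0.18 ± 0.07 (adjusted p = 0.0286). The centromeric H3 variant gene CENPA (-1.86 ± 0.15, edgeR adjusted p = 2.76e-10) and its chaperone gene HJURP (-1.20 ± 0.10, adjusted p = 5.27e-10) both fell as mRNA. Of 7 genes that process stem-loop mRNAs, 4 fell and 1 rose, with CASP8AP2 at -0.71 ± 0.11 and LSM10 at 0.32 ± 0.09 (edgeR adjusted p = 1.04e-05 and 0.00345). Over all genes, 37% passed downwards and 36.6% upwards as mRNA, and 26.6% downwards as RPF. The stem-loop list was called about as often as all genes (73.6%), so its counts say nothing about that list.

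The gene most like each member in its profile over the 6 RNA-seq libraries was found by the root mean square difference of centred log2 CPM among 12777 other genes. It was LDHB, a lactate dehydrogenase subunit, for H2AFZ (difference 0.03), CDC6, a replication licensing factor, for H2AFX (0.05), and NCAPD2, a condensin subunit, for H2AFY2 (0.04). It was RAD1 for H3F3A, HNRNPC for H3F3B, PRPF4B for H2AFV, METTL9 for H2AFY, TMEM129 for H2AFJ, TBRG4 for H1F0 and FOSL2 for H1FX, with differences of 0.01 to 0.04. Within 0.1 of the member lay 43 genes for H2AFY2, 48 for H2AFZ and 1340 for H2AFY. As each gene was centred on its mean, a match is above all a like change between states. The log2 fold change was -0.874 for CDC6 and -0.867 for H2AFX, and -0.0074 for METTL9 and 0.0087 for H2AFY. Shared regulation was not tested.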

How the data were processed

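The authors assigned reads of each library to 5′ UTR, CDS, 3′ UTR and other regions per gene symbol, and the deposited values are expected counts without scaling (some are fractions of a read). The submitters' notes name cutadapt 1.18, Bowtie 1.0.1, SAMtools 1.8 and DESeq2 1.22.2; genome build, annotation and strand rule are not given in the sources used here. RPF was the CDS reads of Ribo-seq and mRNA the summed UTR and CDS reads of RNA-seq, rounded to whole numbers, for 16451 symbols with a CDS read. Groups came from the sample labels.

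edgeR 4.0.16 in R 4.3.3 (filterByExpr, TMM factors, quasi-likelihood test, Benjamini-Hochberg adjustment, threshold 0.15) was fitted over all genes, for TE with the lysate as a block in all 12 libraries, a pairing given by the protocol. The fits were tried on simulated counts with a fixed dispersion per library type and no lysate effect. The changed genes were drawn from those with more reads, so members with few RPF reads are not covered. The study used anota2seq; an analysis of partial variance, DESeq2 1.42.0, voom (limma 3.58.1), other scalings, filters and left-out libraries were alternatives. CPM use TMM factors apart from the floors, and log2 TE values add 0.5 to counts. Wilson intervals and floors cover counting error only, while intervals of fold changes rest on the edgeR SE, which includes the spread between libraries. Named genes were all 10 members, the highest and lowest called mRNA change of each factor list, the 3 replication-dependent genes with most RPF reads that were tested for TE, the most alike genes, and markers that check state and cell type. Members, lists and tests were chosen with earlier results of these data known. Sequences are from GRCh37 with GENCODE v44lift37, promoters from RefSeq GRCh38.p14.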

Additional observations from a re-analysis of the deposited data

Results flagged for a closer look

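Reads outside the coding sequence were used in no comparison of RPF, and they stood out for 2 members. In H2AFX, 12.2% of senescent footprints lay in the 3′ UTR (10 of 82, Wilson 95% interval 6.76 to 21.0%), above 0.877% in proliferating cells (2 of 228). They came from all 3 Sen libraries, with 6, 1 and 3 reads. Over all genes the 3′ UTR share of footprints also moved, from 1.70% in Pro to 4.34% in Sen, and it was 3.401, 14.69 and 4.795% in Sen 1 to 3. In H2AFJ, 19.7% of senescent footprints lay in the 5′ UTR (24 of 122, Wilson 95% interval 13.6 to 27.6%), against 0 of 68 in proliferating cells, whose upper bound is 5.35%. Sen 1 held 22 of these 24 reads, Sen 2 held 0 and Sen 3 held 2. Over all genes the 5′ UTR share was 3.24% in Pro and 9.27% in Sen, with 4.89, 44.7 and 13.8% in Sen 1 to 3. The part of these library-wide shifts in the shares of H2AFX and H2AFJ was not tested. Reads of 3 libraries were summed here, so the intervals compare the libraries and not the states.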

How the results depend on the processing

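All 14 alternatives for mRNA called 9 members, and 62.9% to 74.7% of all genes. For RPF, 7 members were called, against 3 with DESeq2 and 1 of the 2 testable with at least 10 counts in every library. Of all genes, DESeq2 called 15.5% and the filter of at least 10 counts 73.1%. Leaving out 1 library gave 5 to 8 members, with 33.3% to 56.9% of all genes called. For TE, 1 was called, against 2 on library totals (11.5% of all genes) and 3 without the 2 shallow lysates (13.2%). It was 0 with DESeq2 (0.375%), voom (0.629%), at least 10 counts (2 testable, 32.1%) or the analysis of partial variance (0%). Leaving out 1 lysate gave 0 to 2 members, and 1.9% to 13.9% of all genes. The cause was not tested. Replicate numbers did not pair Pro with Sen (correlation of deviations -0.1972 to 0.2312 in RNA-seq, 0.0283 to 0.0498 in Ribo-seq). RNA-seq and Ribo-seq of 1 lysate also correlated weakly (-0.0672 to 0.0945), so the lysate block rests on the protocol alone. With replicate number as a block, 9 members were called for mRNA (73.7% of all genes) and 5 for RPF (30.9%). H2AFJ (0.86, edgeR adjusted p = 0.182) and H2AFY2 (-0.17, edgeR adjusted p = 0.878) then did not pass for RPF. Without the lysate block 1 member passed for TE (17.9% of all genes). Signs turned for H2AFY mRNA (library totals -0.0971, at least 1 read -6e-04, leave-one-out -0.0123 to 0.0349), H1F0 RPF (replicate block 0.0406), and in TE under partial variance for H2AFV (1.06), H2AFJ (1.2206), H3F3B (-1.15), H1FX (-2.11) and H1F0 (-3.94). TE of H1F0 was -0.0263 on library totals, -0.0159 with TMM over 12 libraries, -0.0087 with at least 1 read, -0.0158 on CDS reads, -0.053 without shallow lysates and -0.1527 to 0.411 leave-one-out. TE of H2AFY2 ranged from -0.9026 to 1.1088 leave-one-out, and TE of H2AFV was 0.1675 on CDS reads, where the H2AFV to H2AFZ mRNA ratio changed by -0.2114. The 3′ UTR share difference ranged from -0.797 to 1.67 points for H2AFX and from -1.22 to 0.223 for H2AFJ leave-one-out. Library totals moved the all-gene median to -0.11 in mRNA and -0.14 in RPF.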

Other observations

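Promoters from 250 bases before to 50 after the RefSeq start (GRCh38.p14) were searched on both strands for 3 motifs in the 9 members with an entry (all but H1F0). The CCAAT box (CCAAT) was present in 7 of them, H2AFJ, H2AFV, H2AFX, H2AFY, H2AFZ, H3F3A and H3F3B, and in 35.4% of 27305 promoters. These 7 include genes that fell, the 1 that rose and the 1 that did not pass as mRNA. The CHR element (TTTGAA) was present in H2AFX and H2AFZ, and in 15.9% of all promoters. An E2F site (TTTGGCGC or TTTCCCGC) was found in 0 of the 9 and in 2.27% of all promoters. These matches are descriptions of the letters in the window.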
